A study of Mus musculus with 13 samples.

Results

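The comparison is between nuclei of mouse oocytes that lack the RNA helicase MTR4 (MTR4-null) and nuclei of wild-type (WT) oocytes, across genes. Its members are the genes whose deposited value was at least 1 in at least 1 of the 2 nuclear columns of the deposited table. That rule held for 13638 of the 23235 genes listed. The higher value lay between 1 and 1.1 for 154 members and between 0.9 and 1 for 198 genes just outside. Of these, 10394 were at 1 or more in both columns, 2743 only in MTR4-null and 501 only in WT. Genes of the latter 2 groups had to differ, so they were counted apart and most counts below are over the 10394.

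The series holds 13 poly(A) RNA libraries, of which 7 are nuclear. Oocytes were split into nucleus and cytoplasm by micromanipulation, and 10 nuclei went into each library. Libraries were prepared by Smart-seq2, in which cDNA is primed on the poly(A) tail of very small amounts of RNA. WT nuclei have 2 libraries at day 14 and 3 at day 21, and MTR4-null nuclei have 2 libraries at day 21. The sources used here do not give the allele or Cre driver behind the null genotype, the strain, or whether libraries came from different animals.

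The table gives 1 pooled value per gene for each genotype. There is therefore no spread between replicates, no test and no error on any value below, and differences are described by size only. The WT column names no day, so age and genotype cannot be told apart in any of them. Values are named FPKM (fragments scaled to transcript length and library size) by the authors, but the columns do not share 1 scale. The total was 594034 in WT and 1396105 in MTR4-null nuclei, and the median member was at 5.73 and 14.6. The depth in reads is unknown. For this reason each gene is given with its 2 deposited values and with a relative log2 difference, MTR4-null minus WT, after the 2 columns were brought to the same median gene and 1 was added. A relative difference places a gene against the median gene and says nothing of total RNA.

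MTR4 unwinds RNA in the nucleus and feeds it to the RNA exosome, which degrades it from the 3' end. It works in several adaptor complexes: TRAMP, which adds short oligo(A) tails to its targets, NEXT, which takes early, unadenylated transcripts, and PAXT, which takes polyadenylated nuclear RNA. Known targets include short-lived transcripts that run upstream and antisense from active promoters, host transcripts of snoRNAs, and precursors of ribosomal and other structured RNAs. Growing oocytes make and store the RNA that later drives meiosis and the early embryo, and transcription ends when growth ends.

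Some of the results below are grouped by a pair of sequence settings. Whether any difference depends on the sequence itself was not tested. The first is the promoter that a noncoding gene shares, back to back, with a coding gene. The 250 bases before the annotated start of 3 such coding genes are printed. The noncoding gene on the other strand starts 92, 64 and 174 bases away. These pairs were picked by their values. They had the greatest changes of the noncoding to coding ratio among close pairs without overlap whose noncoding gene was at 10 or more. The windows are from RefSeq (GRCm38.p6), on the strand of the coding gene, and CG pairs are in capitals. Rab35 is at chr5:115631737-115631986 (+), Tm9sf2 at chr14:122106832-122107081 (+) and Ncl at chr1:86359456-86359705 (-).
Rab35 (noncoding neighbour 1110006O24Rik): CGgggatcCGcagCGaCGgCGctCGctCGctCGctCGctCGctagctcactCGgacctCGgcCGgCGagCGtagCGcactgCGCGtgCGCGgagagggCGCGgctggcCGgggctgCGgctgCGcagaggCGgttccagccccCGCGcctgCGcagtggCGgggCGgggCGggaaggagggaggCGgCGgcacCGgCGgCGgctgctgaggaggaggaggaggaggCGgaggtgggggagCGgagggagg
Tm9sf2 (noncoding neighbour A330035P11Rik): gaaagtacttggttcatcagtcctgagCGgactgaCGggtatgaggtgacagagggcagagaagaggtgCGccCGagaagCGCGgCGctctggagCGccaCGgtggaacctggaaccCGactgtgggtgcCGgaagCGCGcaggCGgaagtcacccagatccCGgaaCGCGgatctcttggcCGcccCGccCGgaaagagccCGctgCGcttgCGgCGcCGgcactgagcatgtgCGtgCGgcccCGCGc
Ncl (noncoding neighbour C130036L24Rik): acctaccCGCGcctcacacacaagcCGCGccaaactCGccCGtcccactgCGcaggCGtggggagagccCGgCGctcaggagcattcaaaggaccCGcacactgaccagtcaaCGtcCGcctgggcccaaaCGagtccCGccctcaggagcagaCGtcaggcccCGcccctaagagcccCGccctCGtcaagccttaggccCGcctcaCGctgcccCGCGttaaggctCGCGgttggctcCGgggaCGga
These windows hold 39, 29 and 27 CG pairs, against a median of 6 over 27025 RefSeq promoter windows of the same length. Only 1.54% of all windows hold as many as that of Rab35.

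The second setting is a stretch of a B1 or B2 element, short interspersed repeats of the mouse genome that lie in many introns and mRNA tails. The 4 stretches of 25 bases held by the greatest numbers of member genes in their annotated transcripts (GENCODE vM21), once simple repeats and stretches held largely by the same genes were set aside, were both strands of B1 and both strands of B2. They are printed as they read in the transcript.
B1, reverse strand: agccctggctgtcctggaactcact
B1, forward strand: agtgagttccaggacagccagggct
B2, reverse strand: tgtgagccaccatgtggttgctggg
B2, forward strand: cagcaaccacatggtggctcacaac
They were picked by how many genes hold them, without regard to any value. They occurred in 448, 382, 321 and 309 member genes, in the order printed.

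Skiv2l2, the gene of MTR4, had a deposited value of 13.3 in WT nuclei and 3.54 in MTR4-null nuclei. These are percentiles 65.6 and 21.2 of the members and a relative log2 difference of -2.65. All 18 oocyte markers (zona pellucida genes, Gdf9, Bmp15, Figla and others) were at 1 or more in both columns, with 3.07% of the WT and 2.43% of the MTR4-null total. Of 24 granulosa and cumulus markers, 5 were at 1 or more in WT and 9 in MTR4-null, and the list summed to 54.1 and 110.1, or 0.00911% and 0.00789% of the totals. Lhcgr and Ptx3 were at 0 in both. No theca or stroma marker of 9 reached 1 in either column. Of 15 blood, immune and endothelial markers 3 did in each, and Ptprc, Lyz2 and both Hbb-b genes were at 0 in both. In pooled nuclei, fewer nuclei with an RNA and less of it per nucleus cannot be told apart.

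Relative to the median gene, 2970 of the 13638 members (21.8%) stood at least 2-fold higher in MTR4-null nuclei and 2251 (16.5%) at least 2-fold lower. As deposited, 49.8% were higher and 4.25% lower. If the multiplying factors that the digits of the values give (0.125 for WT, 0.5 for MTR4-null) are divided out, the balance turns, with 17.0% higher and 42.9% lower. The overall balance is therefore a matter of scale, whereas the order of genes is not. Among the 10394 genes at 1 or more in both columns, 14.6% were higher and 17.2% lower relative to the median gene, with a median of -0.21. As deposited these shares were 44.0% and 2.43%, and with the digit factors divided out 7.10% and 51.0%. The shares of 14.6% and 17.2% are the background against which the counts of every gene group below are read, unless another is named.

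**Figure D1:**
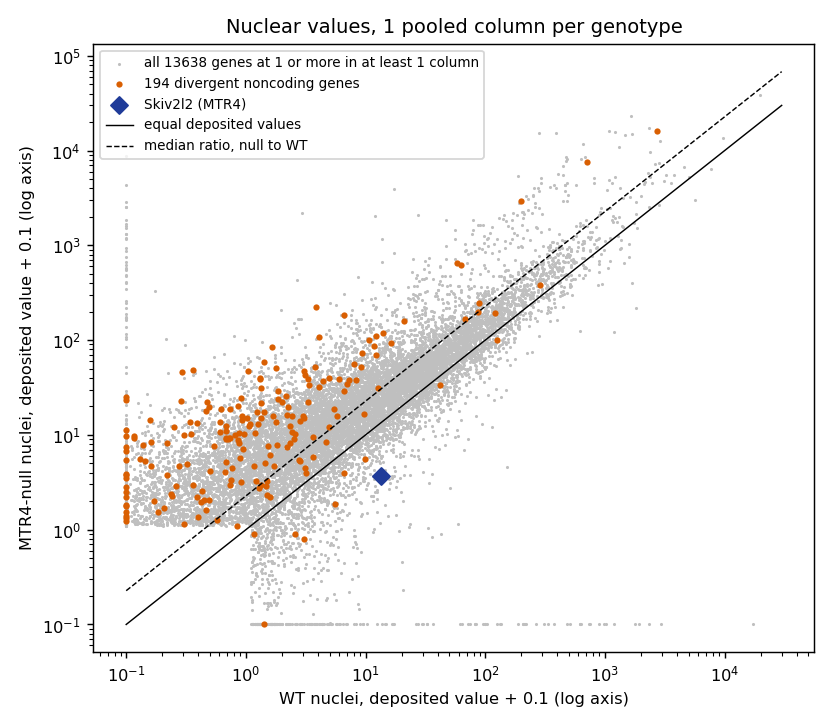
Deposited values of the 13638 members in MTR4-null nuclei (vertical) against WT nuclei (horizontal), each plus 0.1 on log axes, with 1 pooled column per genotype. The dashed line is the median ratio (2.27), the 194 divergent noncoding genes (orange) lie mostly above the dashed line, and Skiv2l2 (blue) lies at 13.3 and 3.54.

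Noncoding genes that start back to back with a coding gene lay mostly above the median gene. By GENCODE annotation, 194 noncoding members had their 5' end within 1000 bases of the 5' end of a protein-coding gene on the other strand. Of the 97 that were at 1 or more in both columns, 54 (55.7%) were past 2-fold higher and 5 past 2-fold lower on the relative scale, with a median relative log2 difference of 1.27. The background shares were 14.6% and 17.2%. A further 93 were at 1 or more only in MTR4-null nuclei and 4 only in WT nuclei. As deposited, 76 of the 97 were higher and 1 was lower, against the background of 44.0% and 2.43%. The same genes had a median relative log2 difference of 1.15 in the cytoplasm columns.

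Most divergent noncoding genes had low values in WT nuclei, and low genes of every kind tended to be relatively higher in MTR4-null nuclei. They were therefore set beside coding genes of the same WT level. At WT values from 1 to 3, 25 of 46 divergent genes were higher (54.3%), against 28.7% of 1890 coding genes. At 3 to 10 it was 17 of 31 (54.8%) against 15.6% of 2758. At 10 to 100 it was 9 of 14 (64.3%) against 5.68% of 4175, and at 100 or more 3 of 6 against 7.03% of 882. The share among divergent genes was 50% or more at each of these levels, whereas among coding genes it was smaller at higher levels. Noncoding genes with neither a divergent nor an overlapping coding gene lay between the divergent and the coding genes at each level. Their shares higher were 31.0% of 58, 32.5% of 40, 41.3% of 46 and 30% of 10, from the lowest level to the highest.

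The coding genes at the same promoters lay near the background. In 88 pairs both genes were at 1 or more in both columns, and the coding partners had a median relative log2 difference of -0.32, with 10 of 88 higher and 10 lower. The ratio of a noncoding gene to its partner inside a column does not depend on how that column was scaled. The median log2 ratio was -1.48 in WT nuclei and 0.03 in MTR4-null nuclei, so that the median noncoding gene was below its partner in WT and level with it in MTR4-null nuclei. The ratio was greater in MTR4-null nuclei in 77 of 88 pairs, by at least 2-fold in 58, and smaller by at least 2-fold in 7. The noncoding gene exceeded its partner in 25 pairs in WT and in 45 in MTR4-null nuclei. Smart-seq2 does not mark strand, so for genes that overlap, reads of one can count for the other. In the 52 pairs whose genes do not overlap, the median change of the ratio was 1.83, and in the 36 that do it was 1.29.

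**Figure D2:**
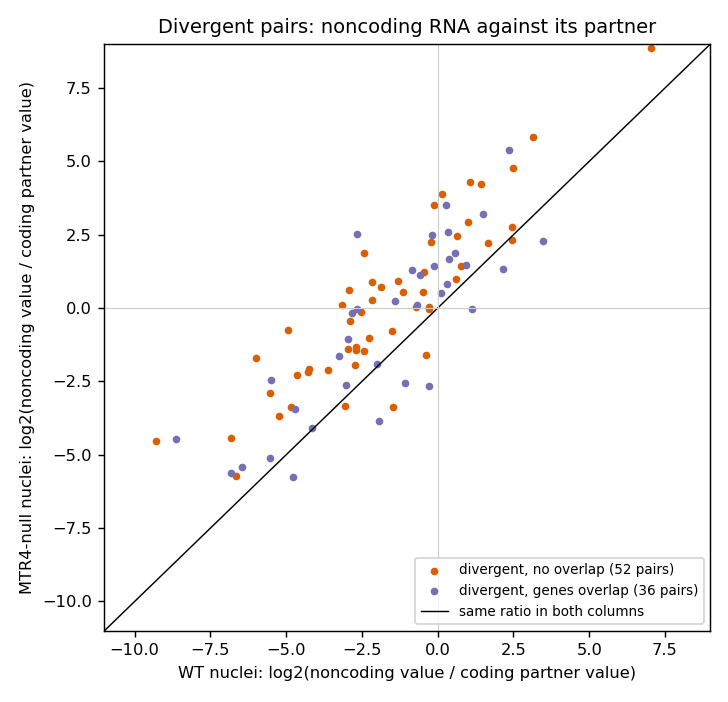
Each point is 1 of 88 divergent pairs, with the log2 ratio of the noncoding value to its coding partner's value in WT nuclei (horizontal) and in MTR4-null nuclei (vertical). Points above the diagonal (77 of 88) have a greater ratio in MTR4-null nuclei, in pairs with and without overlap.

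Named pairs show the range. At the Rab35 promoter printed above, 1110006O24Rik was at 3.78 in WT and 223.7 in MTR4-null nuclei, or percentile 42.0 and 93.8 of the members. Rab35, a small GTPase of endosome recycling, was at 20.3 and 61.3, near the median gene at 0.40. At the promoter of Ncl, which encodes the nucleolar protein nucleolin, C130036L24Rik was at 1.22 and 39.9 while Ncl was at 37.4 and 67.1. A330035P11Rik was at 3.005 and 42.5, and its partner Tm9sf2 was lower in deposited value, 190.5 against 139.0. Here the RNA on one side of the promoter was higher and the RNA on the other side lower even before any rescaling.

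The same held where the partner was abundant. D030040B21Rik was at 1.75 and 29.1 next to Tceb1, the elongin C gene, at 1101 and 679.4. Next to Ube2d3, a ubiquitin-conjugating enzyme gene at 489.1 and 480.7, 4930539J05Rik was at 1.24 and 21.8, though these genes overlap and Ube2d3 holds the forward B2 stretch. The greatest change of ratio among pairs at 10 or more was 5.17 on the log2 scale, for Gm10941 (6.51 and 182.5) beside Pofut2 (41.1 and 32.0), which overlap as well. In a pair with a low partner, 2810013P06Rik was at 1.33 and 58.9 beside Ankrd11 at 1.21 and 4.001, so the partner was higher too as deposited. Both of these genes hold the forward B2 stretch.

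A few pairs went the other way. A930005H10Rik was at 2.96 and 15.2, but its partner Dph5, a diphthamide synthesis gene that overlaps it, was at 6.32 and 89.0, a log2 ratio change of -1.46. Dph5 holds the forward B2 stretch. Snhg1, a snoRNA host, was at 42.0 and 33.9 beside Slc3a2 at 54.8 and 102.0. Both the host and its ratio were thus lower in MTR4-null nuclei.

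Noncoding genes outside the divergent setting were also more often higher than lower, apart from the 5 that overlap a coding gene on the same strand (2 higher and 2 lower). Noncoding genes that overlap a coding gene on the other strand without sharing its promoter had 47 of 96 higher and 9 lower, with a median of 0.93, and for these the reads of both strands cannot be told apart. Noncoding genes with no such coding gene had 53 of 154 higher (34.4%) and 19 lower, with a median of 0.52. The class that GENCODE itself lists as bidirectional promoter lncRNA had 27 members, 25 of which belong to the divergent set. Of its 14 at 1 or more in both columns, 9 were higher and none lower, with a median of 1.38, and its other 13 were at 1 or more only in MTR4-null nuclei. Dio3os, the transcript opposite Dio3, was one of the latter at 0.259 and 48.2.

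Promoters of both sides of a divergent pair were rich in CG pairs. The median was 24 in 250 bases for 162 divergent noncoding genes with a RefSeq window and 22 for 137 coding partners, against 16 for 7909 coding members and 4 for 240 noncoding members with no such coding gene. The count describes the windows and was not tied to any value.

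The genes with the highest values in MTR4-null nuclei, small RNA genes left aside, were a different set from those in WT nuclei. The top 10 in WT held maternal mRNAs, among them Zbed3 (3759 in WT and 5467 in MTR4-null), the linker histone H1foo (3546 and 4507) and the growth factor Gdf9 (2494 and 4577). In MTR4-null nuclei the top was Pola2, a DNA polymerase alpha subunit gene, at 1639 in WT and 23006 in MTR4-null. Pbld1 was at 1072 and 16155, Nip7, a ribosome biogenesis factor gene, at 1210 and 15643, AI506816 at 280.6 and 15375, and Dclre1c, the Artemis nuclease gene, at 661.8 and 11618. A330069E16Rik alone stood in both lists, at 2708 and 16107.

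Many of these genes hold the forward B2 stretch. It was in the transcripts of 4 of the top 10 genes of MTR4-null nuclei (Pola2, Pbld1, Nip7 and Churc1) and of none of the top 10 of WT nuclei, and the reverse B2 stretch was in 3 more (Gm16702, Gm15645 and Dclre1c). Across the 291 holders of the forward stretch at 1 or more in both columns, 107 (36.8%) were higher and 43 (14.8%) lower, with a median of 0.34. The genes with none of the 4 stretches had 13.2% higher and 17.7% lower and a median of -0.23. Holders of the reverse B2 stretch had 63 of 295 higher, of the forward B1 stretch 68 of 323, and of the reverse B1 stretch 69 of 373.

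Genes that were already abundant in WT were counted apart. At WT values of 100 or more, 33 of 47 holders of the forward B2 stretch were higher, 5 lower and 9 between, with a median of 1.61. Of the reverse B2 stretch 13 of 35 holders at this level were higher and 8 lower (median -0.13), of the forward B1 stretch 3 of 20 and 3 (-0.32), and of the reverse B1 stretch 2 of 26 and 11 (-0.68). Of the 843 abundant genes with none of the 4 stretches, 37 were higher and 259 lower, with a median of -0.66. Holders among the higher genes include Polr2l, an RNA polymerase subunit gene (808.3 and 5118), Luc7l2, a U1-associated splicing factor gene (349.4 and 4138), Exosc2, an exosome cap subunit gene (485.7 and 2975), and Lepr, the leptin receptor gene (199.3 and 2868). Tceb1, which holds the reverse B1 stretch, was lower, at 1101 and 679.4.

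**Figure D3:**
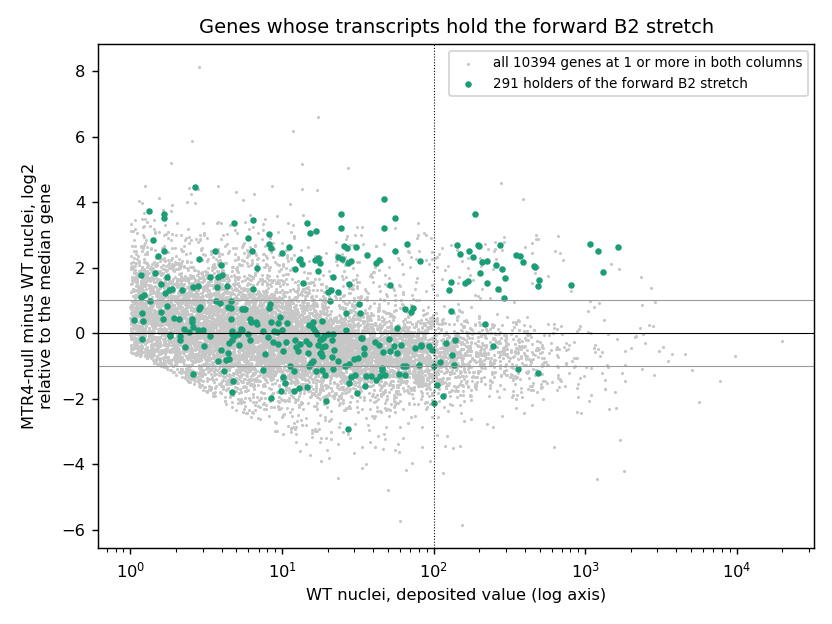
Relative log2 difference between MTR4-null and WT nuclei (vertical) against the deposited WT value on a log axis (horizontal) for the 10394 genes at 1 or more in both columns (grey) and the 291 that hold the forward B2 stretch (green). Right of the dotted line at 100, 33 of 47 holders lie at 1 or more, where few other genes do.

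A repeat stretch occurs at very many places in the genome. How reads that fit several copies were shared among genes is not stated in the sources used here, so a value of such a gene may hold reads from other copies, and this was not tested. The same abundant holders also stood apart in the cytoplasm columns. Their median value was 219.9 in WT nuclei and 107.1 in WT cytoplasm, and 29 of 47 were lower in WT cytoplasm than in WT nuclei as deposited, against 57 of the 843 abundant genes without a stretch. In MTR4-null their median was 2080 in nuclei and 1944 in cytoplasm. Nip7 was at 365.9 in WT and 13610 in MTR4-null cytoplasm, whereas Pola2 was at 481.8 and 740.1. The median relative difference in the cytoplasm was 4.98 for the 47 abundant holders, 34 of them higher, and -0.76 for the 843. Over all 291 holders, whatever their level, the median relative difference in the cytoplasm was 0.39. Of the 194 divergent noncoding genes, 12 held any of the 4 stretches. Holders were a minority in general, since 12089 of the 13383 members with transcripts held none.

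Structured noncoding RNAs that normally carry no poly(A) tail were among the larger differences. Rnu11 and Rnu12, the U11 and U12 RNAs of the minor spliceosome, were at 17.3 and 3949 and at 13.5 and 1161. Rmrp, the RNA of RNase MRP, was at 1.85 and 205.5, and Rpph1, the RNA of RNase P, at 2.63 and 166.6. Scarna17, a guide RNA of Cajal bodies, was at 389.5 and 15170, and Scarna13 at 5.56 and 234.8. By rank, Rmrp was at percentile 29.96 in WT and 93.3 in MTR4-null, and Rpph1 at 35.8 and 91.97. Others in the group did not share this. Terc, the telomerase RNA, was at 3.43 and 2.98, Scarna2 at 5045 and 5217, and Scarna10 was at 95.1 in WT and listed at 0 in MTR4-null. Small RNA genes as a whole were scattered: of 170 members, 76 were at 1 or more in both columns, with 26 higher and 15 lower, and 43 were at 1 or more only in MTR4-null and 51 only in WT. Most RNAs of this class are shorter than the cDNA that such libraries are made from. This limit also applies to short RNAs named above, Rnu11 and Rnu12 among them. Other single entries, higher or lower, are not given.

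Host genes of snoRNAs, which carry snoRNAs in their introns, were divided by whether they code for protein. Of 11 noncoding hosts at 1 or more in both columns, 7 were higher and 1 lower, with a median of 1.93. A further 2 were at 1 or more only in MTR4-null nuclei. The 11 include Rpl34-ps1 (173.5 and 247.9), a processed pseudogene in GENCODE that RefSeq lists as coding and that was not among the 7. Snhg6 was at 22.5 and 279.4, Snhg10 at 10.6 and 100.6, Snhg11 at 11.3 and 102.1 and Gas5 at 6.88 and 34.1, examples chosen after the values were seen. Of 37 coding hosts at 1 or more in both columns, none was higher and 5 were lower, with a median of -0.42. Hspa8, the constitutive HSP70 gene and the highest of them in WT, was at 542.5 and 442.7. The remaining coding host, Cct6a, was at 0.948 and 57.0 and holds the forward B2 stretch. Median WT values were 85.4 for coding and 11.3 for noncoding hosts. Coding genes at WT values from 30 to 100 had 5.06% higher and 27.9% lower, and those from 10 to 30 had 6.11% and 21.1%.

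Replication-dependent histone genes make mRNAs that end in a stem-loop in place of a poly(A) tail, so a poly(A) library sees their adenylated forms. Among genes at 1 or more in both columns, those of H4 were most often higher: of 6, 4 were higher and none lower, with a median of 2.33. At 1 or more only in MTR4-null were 4 of 10 H4, 7 of 12 H2B, 3 of 5 H2A and 2 of 6 H3 members. None of these classes had members only in WT. Of 4 H1 members, 2 were only in MTR4-null and 2 in both columns. Of the latter, Hist1h1a (10.5 and 8.16) was lower, at a relative difference of -1.39, and none was higher. Over all 13638 members, 2743 were only in MTR4-null and 501 only in WT. Of H2A, H2B and H3 genes together 11 were at 1 or more in both columns, and Hist2h2bb (2.22 and 35.4), Hist2h3c1 (1.46 and 16.3) and Hist3h2a (1.86 and 11.9) were the ones past 2-fold. Near-identical histone copies can share reads. Slbp, which encodes the protein that binds the histone stem-loop, was at 1056 and 570.8, a relative log2 difference of -2.07.

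Genes of the machinery that MTR4 belongs to were found on both sides. In TRAMP, the poly(A) polymerase genes Papd7 (97.9 and 80.0) and Papd5 (16.0 and 15.9) were lower relative to the median gene, at -1.46 and -1.12. In NEXT, the RNA-binding subunit gene Rbm7 was at 97.2 and 52.4, a relative difference of -2.04, and Zcchc8, its scaffold, at 56.8 and 67.5. In PAXT, the zinc-finger scaffold gene Zfc3h1 was at 3.92 and 19.5 (relative difference 1.01) and Pabpn1, the nuclear poly(A)-binding protein gene, at 45.8 and 147.5 (0.50). Of the other partners, the cap-binding genes Ncbp1 (1.65 and 17.0) and Srrt (9.27 and 65.7) were higher, and Mphosph6, an exosome cofactor gene, was at 1297 and 1271.

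Among 9 ring and cap subunits of the exosome, 3 were higher and 1 lower. The higher ones were Exosc6 (3.76 and 42.2), Exosc4 (22.8 and 110.6) and Exosc2, which holds the forward B2 stretch and is given above, and the median of the list changed sign under 2 alternatives. The lower one was Exosc9, at 17.9 and 19.5. Among the nucleases, Exosc10 was at 26.2 and 31.1 and Dis3l at 65.7 and 51.2, relative differences of -0.91 and -1.52. Genes of the Ski complex, which serves the exosome of the cytoplasm, had 2 of 4 higher: Wdr61 at 5.89 and 63.8 and Skiv2l, the helicase closest to MTR4, at 3.70 and 35.6.

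Genes that remove or bind poly(A) tails in the oocyte held some large differences. Cnot7, a catalytic subunit gene of the CCR4-NOT deadenylase, was at 118.8 and 23.5, lower on the deposited scale too, with a relative difference of -3.44. Of 9 CCR4-NOT subunit genes, 3 were lower and none higher. Pabpn1l, an oocyte poly(A)-binding protein gene, was at 622.5 and 126.1 (relative difference -3.47). Pabpc1, the general cytoplasmic form, went the other way, at 8.15 and 77.5. In the cleavage and polyadenylation complex, 5 of 18 genes were higher and 1 lower, led by Rbbp6 (2.52 and 49.9) and Clp1 (1.20 and 13.1).

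**Figure D4:**
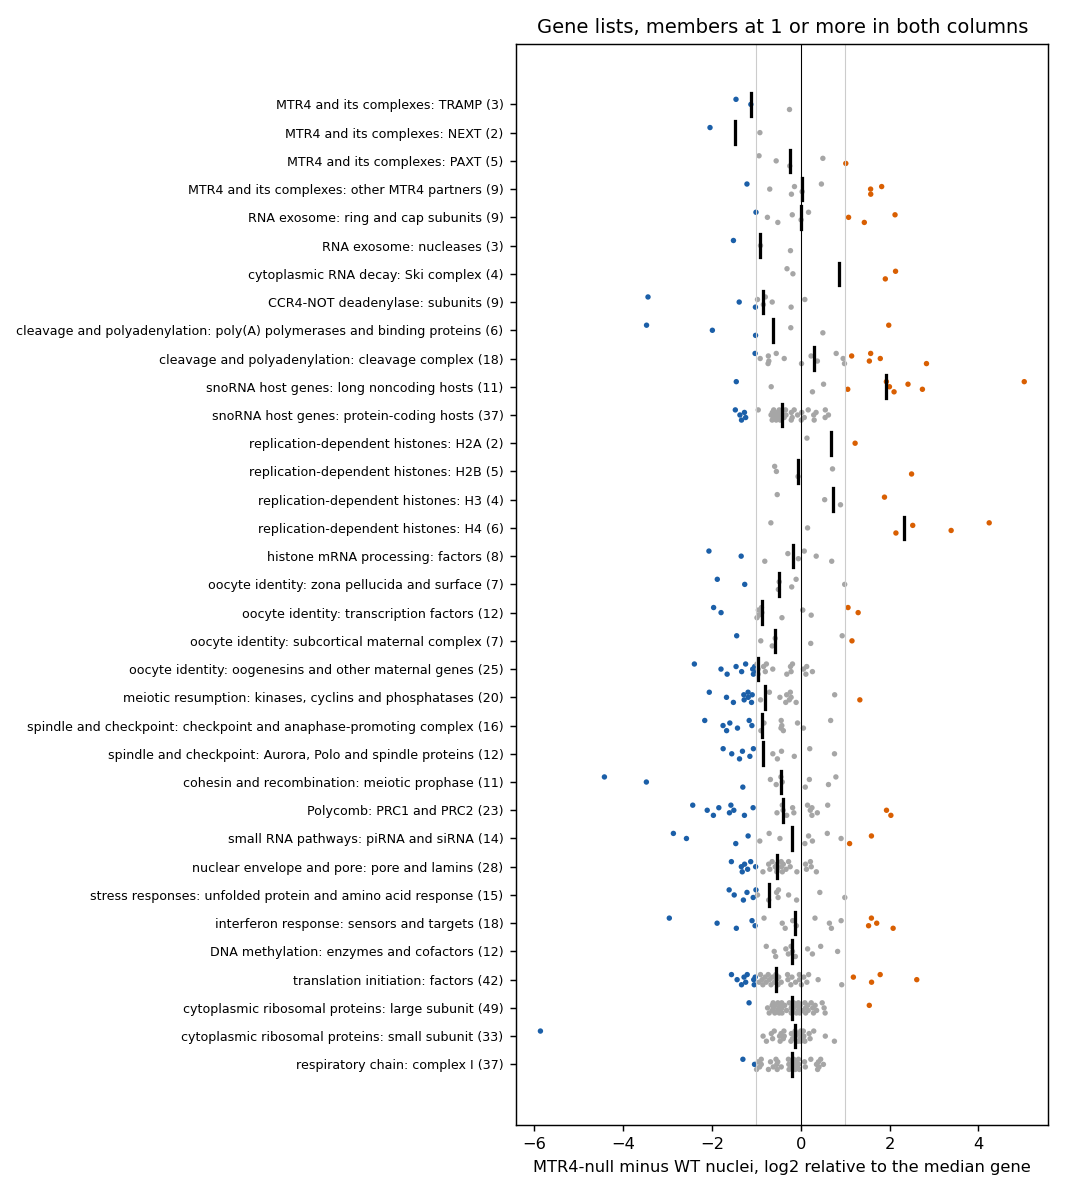
Relative log2 difference between MTR4-null and WT nuclei (horizontal) for each member at 1 or more in both columns (points) of 35 gene lists, with the median as a black bar and the number of members in brackets. Orange points are at least 2-fold higher and blue points at least 2-fold lower. The noncoding snoRNA hosts and H4 genes have their medians at 1.93 and 2.33, whereas the oogenesin and meiosis lists have theirs between -0.96 and -0.81.

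Maternal and meiotic genes lay below the median gene. Of 25 oogenesin and other maternal genes, 10 were lower and none higher, with a median of -0.96. Oog3 was at 881.2 and 379.2 and Oog2 at 126.6 and 81.7. Of 20 genes of meiotic resumption, 9 were lower and 1 higher, with a median of -0.81. Ccnb1, the cyclin B1 gene, was at 454.5 and 359.8, and Mastl, which encodes the Greatwall kinase, at 29.4 and 19.96. The exception was Wee1, a kinase gene that restrains CDK1, at 4.99 and 30.8. Of 16 genes of the spindle checkpoint and the anaphase-promoting complex, 7 were lower and none higher, led by Ttk, which encodes the checkpoint kinase MPS1, at 79.3 and 39.1. Of 12 Aurora, Polo and spindle genes, 6 were lower and none higher. These lists are read against their level: coding genes at WT values from 30 to 100 had 27.9% lower and a median of -0.59, and those from 100 to 1000 had 29.6% and -0.65.

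Other oocyte lists also had medians below 0, as did all 10394 genes at 1 or more in both columns (-0.21), with single genes higher. Of 7 zona pellucida and surface genes none was higher and 2 were lower (median -0.49), and of 5 growth factor and KIT genes none was higher and 2 were lower (-0.63). Of 12 transcription factor genes 2 were higher and 2 lower (-0.88), and of 7 subcortical maternal complex genes 1 was higher and 1 lower (-0.58). The median WT values of these lists were 355.0, 117.2, 54.3 and 924.4, in the order given. Coding genes at WT values from 100 to 1000 had 29.6% lower and a median of -0.65, and those from 30 to 100 had 27.9% and -0.59. The zona, growth factor and subcortical complex medians were thus not below that of their level. Zp2, a zona pellucida gene, was at 1080 and 4868 and Zp3 at 2125 and 4487. Nlrp5, a gene of the subcortical maternal complex, was at 188.4 and 953.1, and Figla, a transcription factor gene of the zona genes, at 35.9 and 202.0, both past 2-fold higher. The homeobox genes Obox5 (899.1 and 522.9) and Obox1 (482.6 and 314.8) and Folr4, the sperm receptor gene now called Juno (355.0 and 218.0), were lower.

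Of 11 meiotic prophase genes at 1 or more in both columns, 3 were lower and none higher, with a median of -0.45. The median WT value of the 11 was 12.6, and coding genes at WT values from 10 to 30 had 21.1% lower and a median of -0.38. A further 3 prophase genes were at 1 or more only in MTR4-null nuclei. Among the lower genes, Hormad1, which marks chromosome axes, was at 23.4 and 1.05 or percentiles 75.4 and 4.16. Tex12, of the synaptonemal complex, was at 84.0 and 15.8. Both were past 2-fold lower as deposited as well. In the piRNA and siRNA list, 2 of 14 genes were higher and 4 lower, with a median of -0.19 that changed sign under 1 alternative. Mael was at 83.7 and 24.7 and Piwil1 at 10.0 and 2.57, whereas Fkbp6 was at 10.1 and 72.0. Of 23 Polycomb genes at 1 or more in both columns, 9 were lower and 2 higher. Bmi1 (90.5 and 46.6) and Pcgf3 (6.39 and 1.46) encode subunits of Polycomb complex 1 and were lower, while Cbx7 (2.54 and 28.1), from the same complex, was higher.

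Some lists stayed near the median gene. Of 49 large-subunit ribosomal protein genes 1 was higher and 1 lower, with a median of -0.19, and of 33 small-subunit genes none was higher and 1 lower, with a median of -0.12. These small medians changed sign under 2 and 3 of the alternatives tried. Of 37 genes of respiratory complex I, none was higher and 2 were lower, with a median of -0.19. The median WT values of these ribosomal and complex I lists were 200.1, 243.8 and 102.6. Coding genes at WT values from 100 to 1000 had 6.90% higher and 29.6% lower, with a median of -0.65. These lists thus lay above coding genes of their level. Of 12 DNA methylation genes, including Dppa3 (1625 and 3243) and Zfp57 (843.1 and 1577), none passed 2-fold either way. Interferon response genes were mixed, with 4 of 18 higher and 5 lower. Of 15 genes of the unfolded protein and amino acid response at 1 or more in both columns, 6 (40%) were lower and none higher, with a median of -0.72. Their median WT value was 55.2, and coding genes at WT values from 30 to 100 had 27.9% lower and a median of -0.59.

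Single genes were ranked among those at 10 or more in a column and above 0 in both. Small RNAs and genes already named in an account of the whole series, other than list members, were left aside. The largest relative differences in this ranking were of both coding and noncoding kind. Its highest gene was Mt1, a metallothionein gene, at 2.82 and 2208. Its lowest was Rps27, a ribosomal protein gene with near-identical copies, at 153.3 and 4.51. Cyp2c53-ps, which was not ranked, was at 0.553 and 70.7, a relative difference of 4.71 that exceeds those of some of the 12 highest. Of the other genes among the 12 highest, 2810008D09Rik was at 0.0731 and 329.1, 4933439C10Rik at 0.210 and 89.6, 1700084E18Rik at 0.192 and 46.3 and Lypd3, a cell surface protein gene, at 1.25 and 96.6. Of the other genes among the 12 lowest, A430084P05Rik was at 42.6 and 0.805, Gm10094 at 1192 and 122.1, Fam54a at 114.7 and 12.1, the cytokine gene Il17b at 66.1 and 6.88, Tmem87a at 33.9 and 3.03 and Nedd4l, a ubiquitin ligase gene, at 36.0 and 3.72. The genes named here as lowest were lower as deposited too.

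Across coding genes the difference followed the level in the WT cytoplasm, a column that takes no part in the difference. Coding genes at 10 to 100 in the WT cytoplasm had a median WT nuclear value of 3.49 and a median relative log2 difference in nuclei of 0.15, with 21.03% higher and 9.75% lower. At 100 to 1000 these were 19.5 and -0.41, with 6.71% higher and 22.3% lower. At 1000 or more they were 129.6 and -0.64, with 1.05% higher and 28.3% lower. RNAs that are abundant in the WT cytoplasm thus lay lower relative to the median gene in MTR4-null nuclei, and they were also the more abundant RNAs of WT nuclei. The background over 9705 coding genes was 13.1% higher and 17.5% lower.

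The difference also followed base composition. Coding genes were divided into 10 equal groups by the share of G and C in the longest transcript. In the group with the lowest share (33.1% to 41.2%), 8.55% were higher and 32.6% lower, with a median of -0.59. In the group with the highest share (57.3% to 72.5%), 19.7% were higher and 5.36% lower, with a median of 0.20. Among genes at 10 or more in WT, 50.8% of the lowest group were lower, against 7.51% of the highest. Spearman's rho across these 9705 genes was 0.25, a description only, since genes share both columns. In the cytoplasm columns the same correlation was -0.04, and the medians of the lowest and highest groups were -0.07 and -0.10, with a minimum of -0.47 between them.

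**Figure D5:**
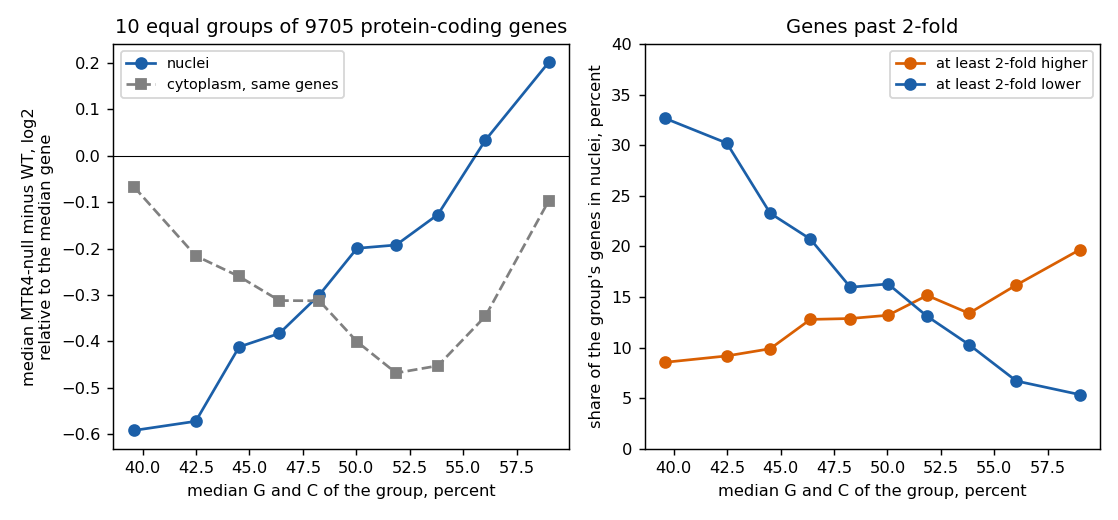
10 equal groups of 9705 protein-coding genes by the share of G and C in the longest transcript. Left, median log2 difference relative to the median gene in nuclei, from -0.59 to 0.20, and in the cytoplasm, with -0.07 and -0.10 at the ends and -0.47 at the lowest. Right, share of each group at least 2-fold higher (8.55% to 19.7%) or lower (32.6% to 5.36%) in MTR4-null nuclei.

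Gene structure varied along with it. Coding genes spanning 1 to 5 kb had 20.2% higher and 10.0% lower, and those spanning 30 to 100 kb 9.63% and 21.2%. Genes of 1 exon had 28.8% higher, and genes of 9 to 16 exons 11.8%. Span and base composition were themselves related (Spearman's rho -0.31 over the same genes), so these counts are not separate results. By chromosome, the share of coding genes lower ran from 12.5% on chromosome 8 to 27.7% on chromosome 3, with 26.7% on X, and the median G and C of those genes was 51.6%, 46.3% and 45.02%.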

How the data were processed

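The 4 columns of the deposited table hold 1 score per gene for each genotype and compartment. The authors named these values FPKM. Per the submitters' processing notes, TopHat2 2.1.1, Cufflinks 2.2.1 and build mm9 were used, with no role given. The sources used here do not say how libraries were pooled and scaled. The digits fit means multiplied by 0.125 (WT nuclei, 87.6% of 3678 values, against 23.5% without) and 0.5 (MTR4-null nuclei, 97.6% of 5824 values, against 74.6% without).

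Members were genes at 1 or more in at least 1 nuclear column. Differences were log2(MTR4-null + 1) minus log2(WT + 1), as deposited and after division by 0.663 (WT) and 1.51 (MTR4-null), each column's median ratio to the geometric mean of both over 13055 genes above 0 in both. A pseudocount of 1 understates changes of low genes. Higher and lower mean 2-fold. No test was possible with 1 column per group. On simulated columns 200 of 200 genes changed 4-fold were recovered and 0 others called. The simulated null column was a multiple of the WT column with little noise, and only genes at 10 or more were changed. The simulation thus checks the arithmetic and says nothing of how accurate calls are on the deposited values.

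Gene types, neighbours and transcripts came from GENCODE vM21 (13383 members matched) and RefSeq (13493 matched), and their coordinates were not joined to the mm9 values. Named genes were Skiv2l2, the 12 highest and 12 lowest relative differences at 10 or more in a column, the 10 highest values per column, and per list the 2 highest in WT and the 2 largest differences each way at 5 or more. The 12 highest and 12 lowest were ranked among genes above 0 in both columns. Small RNA genes and symbols that are plain numbers were left out of that ranking. So were genes already named in an account of the whole series, unless they belonged to a list. Divergent pairs were named by the change of their ratio at 10 or more. The genes compared and the lists were chosen with earlier results of these data known. Alternatives covered the scale, the pseudocount, the filter, the fold and small RNA genes. Python 3.11.15, numpy 2.4.6, pandas 2.3.3 and matplotlib 3.10.9 were used.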

Additional observations from a re-analysis of the deposited data

How the results depend on the processing

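With 1 pooled column per group, no library could be left out and depth is unknown. No paired analysis was possible because the columns carry no replicate numbers. The counts of higher and lower genes (2970 and 2251) moved by over 1.5 times under 5 alternatives. They were 6788 and 580 as deposited, 1386 and 1302 with a pseudocount of 5, 1912 and 1250 with genes at 1 or more in both columns and divisors from these, and 996 and 456 at 4-fold. With the digit factors divided out, 5850 were lower and 2319 higher. The median difference of 0.02 became 0.996 as deposited and -0.76 with the digit factors. The median of the divergent noncoding genes, 1.27 above the median gene, was 1.12 after quantile normalization, 0.85 with a pseudocount of 5, 1.49 with divisors from genes in both columns and 1.503 with those at 5 or more. The median of the forward B2 holders, 0.34, was 0.22 with a pseudocount of 5 and 0.54 with divisors from genes in both columns. Of 260 named genes, 174 were past 2-fold. On each other scale the median member's difference was taken off again, so a change of scale could hardly reverse such a gene. With that step none of the 174 changed direction under the scales and pseudocounts tried, though 23 came under 2-fold in at least 1 of them. Without it, some differed in sign as deposited, such as Bcl2l10, at -1.08 relative to the median gene and 0.10 as deposited. Of 35 list medians, those of the 2 ribosomal protein lists, complex I, PAXT, the exosome ring, H2B, other MTR4 partners, histone mRNA processing, DNA methylation, piRNA and interferon lists crossed 0 under at least 1 alternative.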
